A study of Homo sapiens with 2 samples.

Results

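The regions described here are the ADAR1-bound clusters in the zinc finger gene blocks of human chromosome 19. A cluster is a stretch of the genome where sequenced fragments of ADAR1-bound RNA piled up, as listed by the authors with its strand, its hg19 position and whether it belongs to the Alu or the non-Alu class. A cluster was a member when its midpoint fell in 1 of 6 blocks that cover 11.6 to 12.7, 19.8 to 24.4, 36.7 to 38.3, 44.3 to 45.0, 52.3 to 54.0 and 57.5 to 59.1 Mb, called the first to the sixth block in this order. The 6 blocks held 167 of the 1071 clusters of chromosome 19 and of the 23782 clusters of the whole list. Membership used position alone, not class, strand, length or spacing, but the blocks and measures were picked with earlier results of these data known. The other 904 clusters of the chromosome served as the comparison.

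ADAR1 was pulled down from the established human cell line U87MG, a glioblastoma or astrocytoma, after ultraviolet crosslinking at 254 nm, and the bound RNA was sequenced (CLIP-seq). The 2 libraries, labelled AB1 and AB2 for the antibody, come from this same line, and the labels name no treatment other than the crosslinking. The study's description speaks of different antibodies, while both libraries carry the same catalogue entry. The deposited list does not separate the libraries and gives no tag number or score, so each value below comes from 1 list without replicates, its depth is unknown, and no control pulldown was analysed here.

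ADAR1 edits double-stranded RNA by turning adenosine into inosine. In human transcripts most such RNA forms where Alu elements, short primate retrotransposons, lie close together in opposite orientation within introns or 3′ untranslated regions. KRAB zinc finger genes encode DNA-binding repressors that recruit TRIM28, and many of them silence retrotransposons. They multiplied by tandem duplication, and chromosome 19 carries the main human clusters of them. In the gene order of RefSeq on GRCh38.p14, 265 of 1451 protein-coding genes of chromosome 19 carried a zinc finger symbol (ZNF, ZFP, ZIM, ZSCAN or ZIK), and 241 of these, 90.9%, stood directly beside another. The longest unbroken runs were 27 genes from ZNF737 to ZNF681, 24 from ZNF627 to ZNF791, 24 from ZNF565 to ZNF793, 23 from ZNF772 to ZNF256 and 20 from ZNF283 to ZNF180. The next run was 11 genes, from ZNF699 to ZNF846. This order was read on a different build from the clusters, so the zinc finger genes outside the blocks were not counted. The rest of the chromosome was not shown to be free of them. No hg19 annotation was used here, so clusters are named by position and not by gene, exon or intron, and the label of the blocks rests on the rule and was not tested on these files.

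The blocks held few non-Alu clusters. Of the 167 clusters in the blocks, 157 were Alu and 10 were non-Alu, an Alu share of 94.0% (Wilson 95% interval 89.3 to 96.7%). In the rest of chromosome 19, 745 of 904 clusters were Alu, 82.4% (79.8 to 84.8%), and in the whole list the share was 84.9%. The difference was 11.6 percentage points, with an odds ratio of 3.35 (95% interval 1.48 to 7.61). It passed the test (quasi-binomial regression over windows of 100 kb, Benjamini-Hochberg adjusted p = 0.00291 over 7 results). The interval and the p-value measure the spread between windows of 1 list, not between cultures or antibodies.

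The share was above that of the rest in each of the 6 blocks, though the number of clusters in a block was small. In the first block 23 of 24 clusters were Alu (95.8%), in the second 29 of 31 (93.5%) and in the third 45 of 46 (97.8%). The fourth block had Alu clusters only, 11 of 11, and the sixth had 29 of 31 (93.5%). The fifth block came nearest to the rest, with 20 of 24 (83.3%, Wilson 95% interval 64.2 to 93.3%). It held 4 of the 10 non-Alu members.

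**Figure D1:**
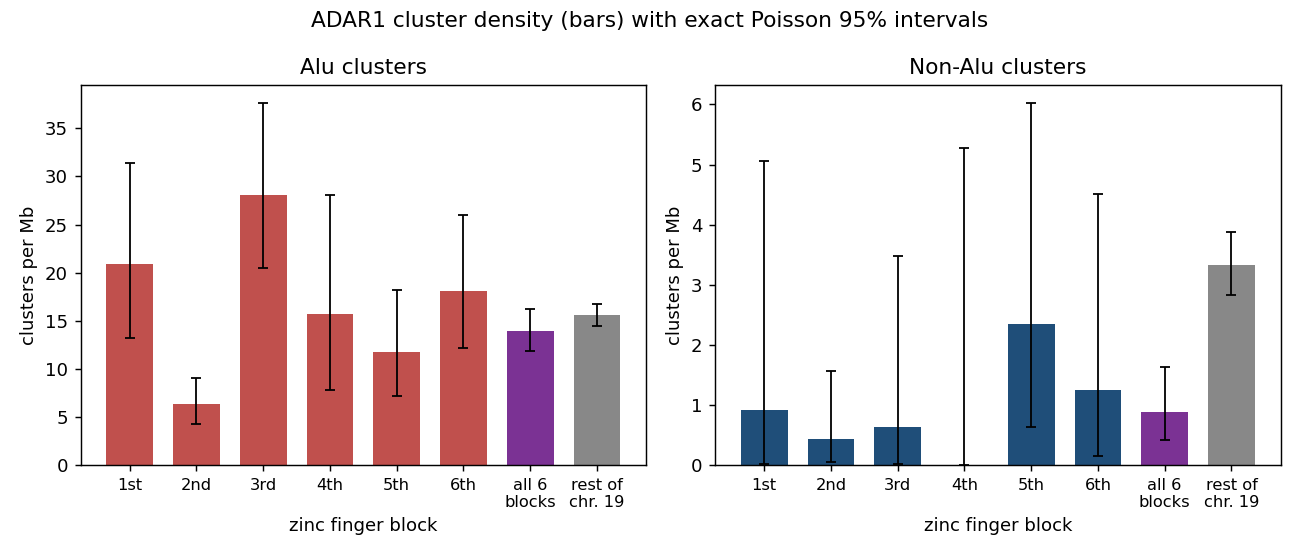
Clusters per Mb in each of the 6 zinc finger blocks, in all 6 together and in the rest of chromosome 19, for Alu clusters (left) and non-Alu clusters (right, other scale). Bars give the density and lines the exact Poisson 95% interval, which covers counting error only. The Alu bar of the 6 blocks (13.9) is near that of the rest (15.6), the non-Alu bar (0.885) is far below it (3.33), and the second block has the lowest Alu bar.

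Counted per length, the blocks had fewer non-Alu clusters, while a lower density of Alu clusters was not shown. The blocks measured 11.3 Mb in all and the rest of the chromosome, to the window of its last cluster, 47.8 Mb. Non-Alu clusters numbered 0.885 per Mb in the blocks (exact Poisson 95% interval 0.424 to 1.63) and 3.33 per Mb in the rest (2.83 to 3.89), a ratio of 0.266 (95% interval 0.107 to 0.660, quasi-Poisson regression over n = 591 windows, adjusted p = 0.00177). Alu clusters numbered 13.9 per Mb in the blocks and 15.6 per Mb in the rest, a ratio of 0.891 (0.700 to 1.14, n = 591 windows, adjusted p = 0.522). The interval allows a density from 0.700 to 1.14 times that of the rest. Counted by place instead of by cluster, 7 of 113 block windows of 100 kb held a non-Alu cluster (6.19%), against 98 of 478 windows of the rest (20.5%). For windows with an Alu cluster the counts were 71 of 113 (62.8%) and 286 of 478 (59.8%). How many Alu elements and how much transcribed sequence the blocks hold was not measured, so these densities are per genome length and not per Alu element or per transcript.

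For both classes together the blocks had 14.8 clusters per Mb and the rest 18.9, a ratio of 0.781 (95% interval 0.617 to 0.990), which did not pass after adjustment (quasi-Poisson regression, n = 591 windows, adjusted p = 0.0624). This value rested on the second block. Without it the other 5 blocks had 20.3 clusters per Mb and the ratio turned to 1.07 (0.829 to 1.39, n = 545 windows, adjusted p = 0.745). For non-Alu clusters the ratio without the second block was 0.359 (0.129 to 0.997, n = 545 windows, adjusted p = 0.0369), and for Alu clusters it was 1.23 (0.942 to 1.59, adjusted p = 0.242). A stretch of 5.60 Mb without any cluster, from 24106368 to 29703902, includes the centromere and lies almost wholly in the rest. Leaving its windows out of the rest lowered the ratio for both classes to 0.695 (n = 538 windows, adjusted p = 0.0023), that for non-Alu clusters to 0.237 (adjusted p = 0.000359) and that for Alu clusters to 0.793 (adjusted p = 0.0766). With the second block and the empty stretch both left out, the ratio for both classes was 0.954 (0.747 to 1.22, n = 492 windows, adjusted p = 0.823), so the 1.07 for both classes depended on counting the empty stretch in the rest. Alu clusters alone numbered 19.1 per Mb in the other 5 blocks, against 15.6 in the rest and 17.5 in the rest without the empty stretch.

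The blocks differed from each other. The second block, the long one that borders the centromere and is known for primate-specific genes such as ZNF91, a repressor of SVA retrotransposons, was the sparsest, with 31 clusters in 4.6 Mb, 6.74 per Mb (exact Poisson 95% interval 4.58 to 9.57). The third block was the richest, with 46 clusters in 1.6 Mb, 28.8 per Mb (21.1 to 38.4). The densities of the others were 21.8 per Mb in the first, 15.7 in the fourth, 14.1 in the fifth and 19.4 in the sixth. The highest was 4.27 times the lowest, and the 6 densities differed beyond the spread between windows (quasi-Poisson regression, n = 113 windows, adjusted p = 4.77e-05). Leaving out the second block, the sparsest, lowers this ratio by construction and leaves fewer windows. The highest was then 2.04 times the lowest, and the difference no longer passed (quasi-Poisson regression, n = 67 windows, adjusted p = 0.203). In the second block 28 of 46 windows of 100 kb had no cluster (60.9%), against 13 of 67 windows in the other blocks (19.4%). Its longest stretch without a cluster ran for 884 kb from 22965484 to 23849757, while those of the other blocks measured from 129 to 337 kb.

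The windows richest in clusters held mostly Alu clusters, as did the blocks as a whole (94.0% Alu), and these lay spread over many kilobases. In the third block, 6 Alu clusters lay between 37312473 and 37396607, of which 4 were plus-strand and 2 minus-strand, and another 6 between 37908818 and 37971369, of which 2 were plus-strand and 4 minus-strand. The first block had 6 between 11616838 and 11668681, of which 5 were Alu and 5 were on the minus strand. In the fifth block, 5 Alu clusters between 53616618 and 53676762 were all on the minus strand, and in the fourth block 3 between 44508962 and 44578521 were all on the plus strand. The sixth block had 3 windows with 4 Alu clusters each, next to or near each other from 58511697 to 58891401. In the second block no window had more than 3 clusters. The 3 windows with that number spanned 20128983 to 20190951, 22954147 to 22965483 and 23934469 to 23986751. Windows with 6 or more clusters made up 3 of 113 in the blocks (2.65%) and 30 of 478 in the rest (6.28%), where the highest count was 10.

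**Figure D2:**
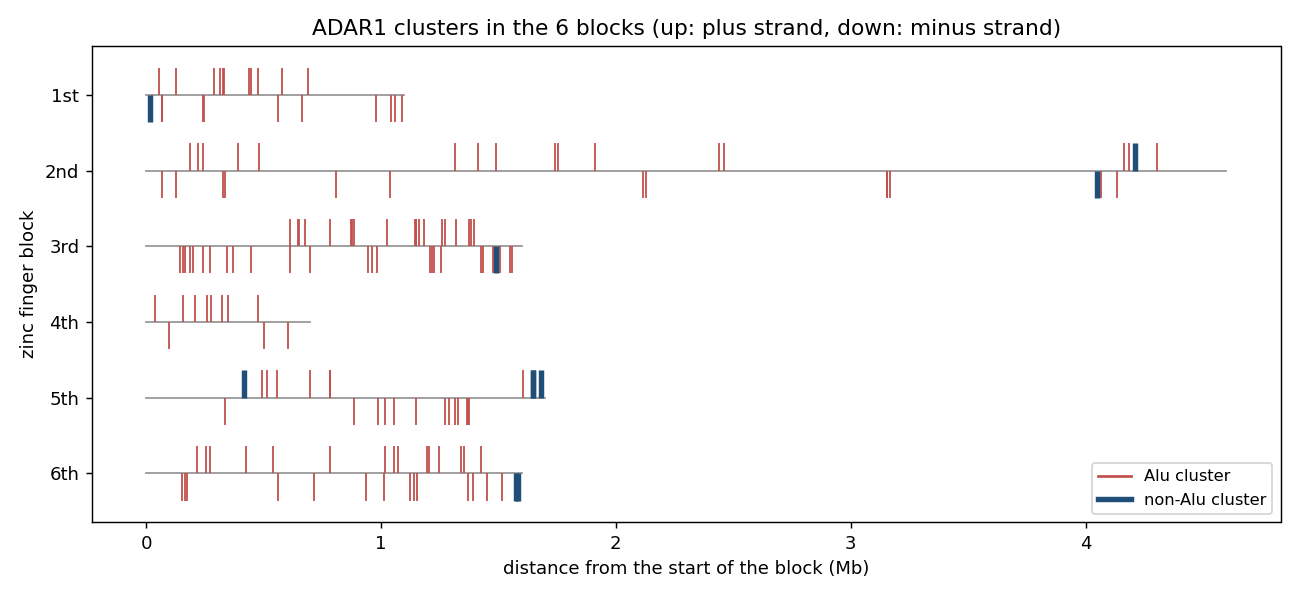
Position of the 167 clusters in the 6 blocks, as distance from the start of each block in Mb. Ticks above a line are plus-strand and ticks below it minus-strand clusters, thin for Alu and thick for non-Alu. The second block has wide empty stretches, the third is the most crowded, and 7 of the 10 thick ticks lie within 200 kb of a block edge.

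The 10 non-Alu clusters were few enough to be given one by one, and 7 of them lay within 200 kb of the edge of their block. The first block had 1, on the minus strand from 11616838 to 11616965, at 16.9 kb from the edge. The third block had 1, on the minus strand from 38188189 to 38188322, at 112 kb. The fifth block had 3 near its end, all on the plus strand. They ran from 53945510 to 53945663, from 53945685 to 53945934 and from 53983195 to 53983445. The sixth block had 2 on the minus strand at the end of the chromosome, from 59073322 to 59073453 and from 59083391 to 59083586. Only 3 lay deeper inside a block: 2 in the second block, on the minus strand from 23849758 to 23849994 and on the plus strand from 24010597 to 24010919, and 1 of 76 bases in the fifth block, on the plus strand from 52719129 to 52719204.

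Of the Alu members, 36 of 157 lay within 200 kb of an edge (22.9%, Wilson 95% interval 17.0 to 30.1%), against 7 of 10 non-Alu members (70.0%, 39.7 to 89.2%). These outer zones make up 21.2% of the length of the blocks. In the inner parts 121 of 124 clusters were Alu, 97.6%, and in the outer zones 36 of 43, 83.7%. The width of 200 kb was chosen after the positions had been seen, and the difference between outer and inner zones was not tested. Some of the 7 non-Alu members lay close together, a pair in the fifth block only 21 bases apart, and their interval treats such neighbours as independent. With clusters of a strand within 10 kb counted once, the 10 non-Alu members became 8. The block limits are round figures, so where the zinc finger genes end within an outer zone was not analysed here. The nearest cluster inside each of the 12 edges lay 10.0 to 337 kb from it. Of these 12, 9 were Alu, where the share among all block clusters was 94.0%. Outside, 7 of 11 nearest clusters were Alu, where the share in all the rest was 82.4%, and no cluster lay beyond the last edge. These clusters cannot show whether the limits match the zinc finger genes, because no hg19 annotation was used.

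The blocks contained clusters from both strands in nearly equal number, as did the rest. The plus strand had 82 of the 167 clusters, 49.1% (Wilson 95% interval 41.6 to 56.6%), and in the rest 437 of 904, 48.3% (45.1 to 51.6%). The odds ratio was 1.03 with a 95% interval of 0.652 to 1.63, so no difference was shown (quasi-binomial regression, adjusted p = 0.896). Single blocks ranged from 43.5% plus in the third, 20 of 46, to 72.7% in the fourth, 8 of 11, with wide and overlapping Wilson intervals (30.2 to 57.7% and 43.4 to 90.3%).

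Within the blocks the strands came in runs. A CLIP cluster carries the strand of its RNA, so clusters of 1 transcript share a strand. Whether the clusters of a run came from 1 transcript or from several was not tested. The longest run was in the fifth block, where 12 consecutive clusters, all Alu, lay on the minus strand over 493 kb from 53183817 to 53676762. It followed a run of 7 on the plus strand from 52719129 to 53082188. The third block opened with 11 minus-strand Alu clusters over 469 kb from 36843706 to 37312632 and closed with 7 minus-strand clusters, 6 of them Alu, over 132 kb from 38127729 to 38259632. Runs of 7 on the plus strand stood in the first block from 11890253 to 12078422 and in the fourth from 44455984 to 44776781. The 167 clusters formed 49 runs with a mean of 3.41 clusters, and those of the rest 249 runs with a mean of 3.63. Runs of 5 or more held 85 clusters in the blocks, 50.9%, and 542 in the rest, 60.0%. Runs were cut at the block limits, which can only shorten them and touches a larger part of the 49 block runs. Beyond both limits of the third block, for example, the nearest cluster was also on the minus strand. The effect of the cuts on these values was not tested. The count of changes from one strand to the other differed between blocks: 10 in 23 consecutive pairs of the first block, 8 in 45 of the third and 3 in 23 of the fifth.

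Consecutive clusters whose midpoints were less than 10 kb from each other lay on the same strand in 27 of 30 cases in the blocks, 90.0%, and in 251 of 271 in the rest, 92.6%. The odds ratio was 0.717 (95% interval 0.186 to 2.76), an interval that leaves room for a difference either way (quasi-binomial regression, adjusted p = 0.745). At 10 to 50 kb the agreement was 76.7% in the blocks (56 of 73 pairs, Wilson 95% interval 65.8 to 84.9%) and 71.7% in the rest (66.9 to 76.0%). At 50 to 100 kb it was 60.6% (20 of 33 pairs, 43.7 to 75.3%) and 53.5% (45.7 to 61.2%). The agreement was lower at greater distances in both, and the intervals of blocks and rest overlapped at each distance.

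One pair in the blocks, in the third, overlapped on opposite strands. An Alu cluster on the minus strand from 37312473 to 37312632 shared 145 bases with an Alu cluster on the plus strand from 37312488 to 37312705. It stood at the place where the opening minus-strand run of that block ended. The rest of the chromosome had 1 such pair as well, both Alu, with 173 shared bases from 36162373 to 36162545.

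In the share of clusters with a same-strand neighbour, no difference was shown at 1000 bases, the main measure. At 5000 bases, an alternative, the share was lower in the blocks. At 5000 bases, edge to edge, a distance set as an alternative, 23 of 167 clusters in the blocks had one, 13.8% (Wilson 95% interval 9.36 to 19.8%), against 273 of 904 in the rest, 30.2% (27.3 to 33.3%). The difference of -16.4 percentage points passed the test (odds ratio interval 0.214 to 0.637, quasi-binomial regression, adjusted p = 0.000347). At 1000 bases, the distance set as the main measure, the shares were 7.19% (12 of 167) and 9.62% (87 of 904), with an odds ratio of 0.727 (95% interval 0.351 to 1.50, quasi-binomial regression, adjusted p = 0.522). At 200 bases they were 2.40% and 2.21%, and at 10000 bases 31.7% and 48.2% (quasi-binomial regression, adjusted p = 0.00243). The distance of 10000 bases was added after the data were seen. The adjustment does not cover the trying of several distances.

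The 5 blocks other than the second, with 20.3 clusters per Mb against 18.9 in the rest (21.3 without the empty stretch), had a same-strand neighbour within 5000 bases in 21 of 136 cases, 15.4% (quasi-binomial regression, adjusted p = 0.00378). Among Alu clusters alone, an Alu neighbour at that distance was found for 21 of 157 in the blocks, 13.4%, and for 216 of 745 in the rest, 29.0% (quasi-binomial regression, adjusted p = 0.000915). The settings without the second block and with Alu neighbours only were added after the data were seen. The blocks were uneven in the share at 5000 bases. The first block had 8 of 24 clusters with a neighbour at 5000 bases, 33.3% (Wilson 95% interval 18.0 to 53.3%), and the fifth 6 of 24 (12.0 to 44.9%), intervals that both include the 30.2% of the rest. The third, the densest, had 7 of 46, 15.2%, and the second, the sparsest, 2 of 31, 6.45%. The fourth had 0 of 11, which allows a share of up to 27.3%, and the sixth 0 of 31, which allows up to 9.68%. Measured as the distance between consecutive midpoints, the median was 31.5 kb in the blocks and 23.1 kb in the rest, and 28.5 kb without the second block. The lower quartiles were 12.6 kb in the blocks and 7.72 kb in the rest.

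**Figure D3:**
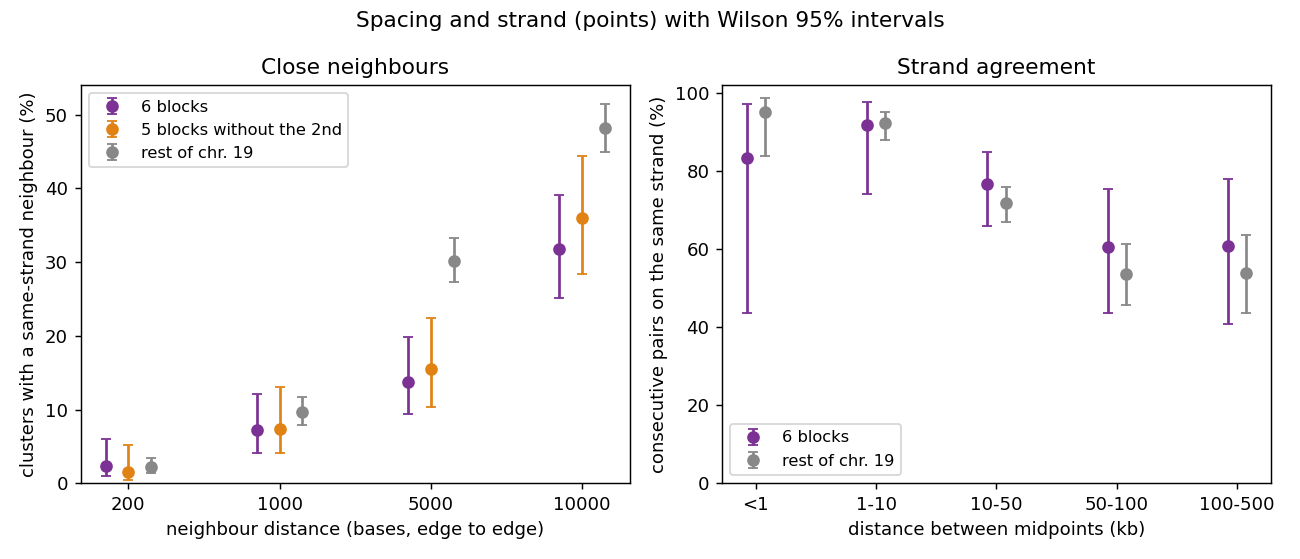
Left, the share of clusters with a same-strand neighbour within 200, 1000, 5000 and 10000 bases, in the 6 blocks, in the 5 blocks without the second and in the rest of chromosome 19. Right, the share of consecutive pairs on the same strand by distance between midpoints. Points are shares and lines Wilson 95% intervals. The 6 blocks lie apart from the rest at 5000 bases (13.8% against 30.2%) and at 10000 bases (31.7% against 48.2%), and not in strand agreement.

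The pairs that were within 1000 bases on the same strand numbered 6 in the blocks, 5 of Alu and 1 of non-Alu clusters. The Alu pairs began at 11626105, 22954147, 37348211, 37849799 and 53081347, with gaps of 345, 134, 947, 404 and 411 bases. The non-Alu pair in the fifth block, from 53945510 to 53945934, was separated by 21 bases. No group of 3 or more clusters of a class followed each other within 1000 bases in the blocks, and the rest had 1 such group, of 6 non-Alu clusters.

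Clusters in the blocks were slightly longer. The median was 202 bases in the blocks (quartiles 173 and 227.5) and 190 bases in the rest (147 and 218). The difference in log2 length was 0.12 (standard error 0.05), a factor of 1.08, and passed the test (linear regression with errors clustered by window, n = 1071 clusters, adjusted p = 0.0222). For Alu clusters alone the medians were 202 and 193 bases (n = 902 clusters, adjusted p = 0.0389). Alu clusters under 150 bases made up 25 of 157 in the blocks, 15.9% (Wilson 95% interval 11.0 to 22.5%), and 182 of 745 in the rest, 24.4% (21.5 to 27.6%). Those over 250 bases made up 10.8% (6.87 to 16.7%) and 5.77% (4.31 to 7.68%). The difference in length did not pass without the second block, where the median was 221 bases (0.08 on the log2 scale, n = 1040 clusters, adjusted p = 0.196), nor without the third, where it was 209 bases (0.11, adjusted p = 0.103). A cluster's length can depend on the size selection of 75 to 250 bases and on how reads were joined, which the sources used here do not give. It is not taken here as a measure of the bound site, and the cause of the difference was not tested.

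**Figure D4:**
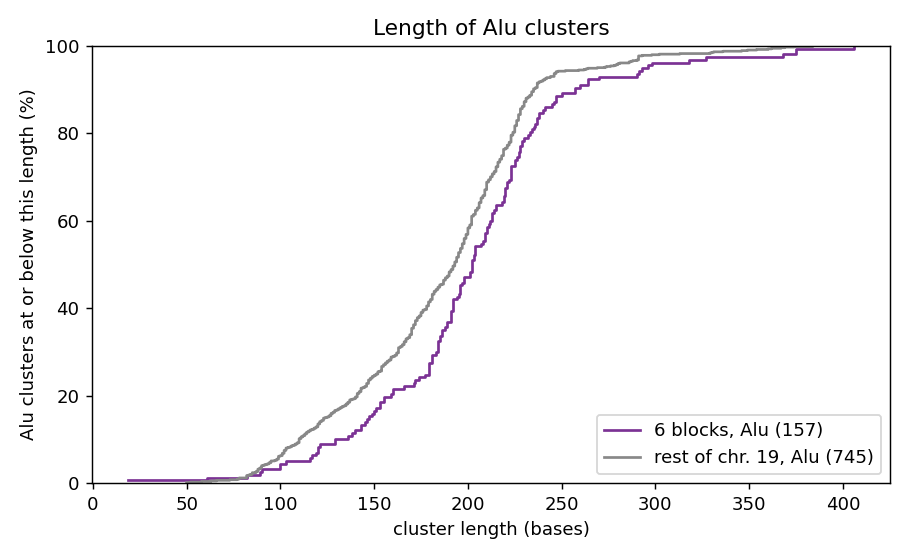
Cumulative share of Alu clusters by length in bases, for the 157 in the 6 blocks and the 745 in the rest of chromosome 19. Apart from the shortest clusters, the line of the blocks runs mostly to the right of the other. The shortest is 19 bases in the blocks and 50 in the rest, and 15.9% of block clusters are under 150 bases against 24.4% of the rest.

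The longest members were Alu clusters of 406 bases on the plus strand in the third block, from 37377464 to 37377869, and of 375 bases in the second, from 20040440 to 20040814 on the plus strand, and in the fifth, from 53183817 to 53184191 on the minus strand. The longest non-Alu member, of 323 bases, was that of the second block at 24010597. At the other end, an Alu cluster of 19 bases lay on the plus strand of the sixth block from 58518120 to 58518138. All members together covered 33437 bases, 0.296% of the blocks, and the clusters of the rest 0.348% of their length.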

How the data were processed

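The 2 CLIP-seq libraries of U87MG cells, labelled AB1 and AB2, gave the single list the authors deposited for the series. Per the submitters' processing notes, the tools were cutadapt 1.1 and Novoalign 2.08.22 and the build hg19. The sources used here do not give the caller, its thresholds, the joining of the libraries, the treatment of reads with several matching places or the rule of the Alu class. Zinc finger genes and Alu elements are repeated sequence, so that treatment decides which copies are listed. The deposited list holds positions, strand and class, and starts were read as counted from 0 and are printed from 1, which the list does not state (an error of 1 base is possible).

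Cluster midpoints were counted in windows of 100 kb along chromosome 19. Density was compared by quasi-Poisson, shares by quasi-binomial regression (F test, two-sided, dispersion at least 1), and length by linear regression on log2 bases, with Python 3.11.15, statsmodels 0.14.6 and scipy 1.17.1. P-values were adjusted over 7 results by the Benjamini-Hochberg method. For an alternative, its p-value took the place of the main one. Neighbouring windows and clusters of 1 transcript are not independent. The Fisher exact test on cluster numbers, an alternative for the Alu share, treats clusters as independent, and its adjusted p was 0.000241. Wilson and Poisson intervals cover counting error only, as do limits from a count of 0 (3 counts). Only the tests of density and Alu share were run on simulated data, where class and strand were drawn independently for each cluster. The tests of the other results were not simulated. The blocks and measures were chosen with earlier results of these data known. Named regions were, by rule, the fullest windows, longest clusters, close and overlapping pairs, empty stretches and edge clusters of the blocks. The 10 non-Alu members, strand runs and the shortest cluster were added after their values were seen. No hg19 sequence was used, so none is printed.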

Additional observations from a re-analysis of the deposited data

How the results depend on the processing

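Of 94 alternative values over the 7 results, 65 had the same direction and the same outcome of the test as the value reported, and 13 of the 94 were chosen after the data were seen. The Alu share did so in 13 of 13 alternatives (8.61 to 13.5 points, adjusted p 0.000478 to 0.0401, Fisher test apart). Not counted were blocks without 200 kb at each edge (15.2 points), a width chosen after non-Alu positions were seen, raising the share by construction. The density ratio of 0.781 passed the test with windows of 50 kb (same ratio, n = 1182 windows, adjusted p = 0.0305), without the longest empty stretch (0.695), for the rest within 2 Mb of a block (0.721), without 200 kb at each block edge (0.737) and for non-Alu clusters (0.266). It did not pass with windows of 500 kb (0.826), with clusters at or above the median length (0.959), with clusters of a class and strand within 10 kb counted once (0.872), or without the second block and the empty stretch (0.954). The non-Alu ratio was 0.237 without the empty stretch, 0.275 with clusters of a strand within 10 kb counted once, and 0.359 without the second block. For Alu clusters without the second block the ratio turned to 1.23 and did not pass, with the empty stretch counted in the rest. Leaving out 1 block at a time gave ratios of 0.66 to 1.07, Alu share differences of 10.2 to 13.4 points, plus-strand differences of -0.90 to 2.90 points, strand agreement differences of -5.12 to 0.71 points, neighbour differences of -4.03 to -0.80 points, length differences of 0.078 to 0.144 (log2) and highest-to-lowest ratios among blocks of 2.04 to 4.27. The density ratio passed without the first block (0.741), the third (0.660) or the sixth (0.741). Differences that did not pass also changed sign. With clusters at or above the median length of 192 bases the plus-strand difference was -3.02 points and strand agreement 5.41 points, and the length difference fell to 0.042 and no longer passed, in fewer clusters. The plus-strand difference was -0.55 without the second and -0.90 without the fourth block. Strand agreement differed by 0.71 without the third block, by 0.27 for pairs under 50 kb apart, and by 0.14 without overlapping pairs, a setting that removes opposite-strand pairs by construction. The neighbour difference was 0.18 points at 200 bases, -16.4 at 5000, -14.8 at 5000 without the second block, -15.6 for Alu neighbours at 5000 and -16.5 at 10000 bases. The cause of these changes was not tested. No paired analysis was possible because AB1 and AB2 are 1 library each and share 1 undivided list. Without tag counts, weak clusters and places without a cluster cannot be judged.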
